A study of Mus musculus with 18 samples.

Results

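Among the regions bound by GATA6 during its induction in mouse embryonic stem (ES) cells, 955 of 42403 (2.25%) carried the H3K9me3-marked state called constitutive heterochromatin, were occupied only transiently and were recorded with neither SOX17 nor a pluripotency transcription factor (PTF: OCT4, SOX2 or ESRRB). They were chosen by 4 classes deposited with each region. Of 16285 Transient regions, 9687 had no PTF, 8937 of these had no SOX17 either, and 955 of the last (10.7%) were in the constitutive heterochromatin state. The GATA6, SOX17, PTF and histone mark values given below chose these regions and are therefore a description, whereas accessibility measured by ATAC-seq, DNA motifs, sequence and position did not enter the choice.

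GATA6 is a zinc finger transcription factor that starts the primitive endoderm (PrE) program, and it can bind its site in closed chromatin. Constitutive heterochromatin is compact chromatin marked by trimethylation of histone H3 at lysine 9, which is read by HP1 proteins and keeps repeated sequence and some genes silent in ES cells. ESRRB, OCT4 and SOX2 hold the ES cell state, and ESRRB is an orphan nuclear receptor that binds single copies of an extended nuclear receptor half-site.

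The cells were clonal KH2 ES lines (C57BL/6 x 129/Sv) with a cassette for HA-tagged GATA6 under control of doxycycline (Dox), kept in LIF on inactivated feeder fibroblasts. The series holds 18 MNase-seq libraries in 6 groups of 3, namely untreated cells (d0) and cells given 1 ug/mL Dox for 8, 16, 24, 48 or 96 h, and every group carries the cassette. No MNase value is in the columns used here. The signals below come from ChIP-seq, ATAC-seq and input libraries of the same system and of XEN cells (an extraembryonic endoderm line), each given by the authors as 1 pooled value per region and time, so no replicate error can be attached to them, and the columns give no depth per library. In bulk chromatin, binding in fewer cells and weaker binding per cell cannot be told apart. Intervals are 95% intervals (Wilson for a share, Newcombe for a difference of shares) and cover counting error among regions only; neighbouring regions and copies of one repeat are not independent.

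Sequences reaching 100 bp to either side of the GATA6 summit are shown for the 3 Transient GATA6-only constitutive heterochromatin regions with the best-scoring GATA6 motifs, on the plus strand of GRCm38 (mm10), with every match to the GATA6 matrix in capitals.
chr8:22821589-22821789: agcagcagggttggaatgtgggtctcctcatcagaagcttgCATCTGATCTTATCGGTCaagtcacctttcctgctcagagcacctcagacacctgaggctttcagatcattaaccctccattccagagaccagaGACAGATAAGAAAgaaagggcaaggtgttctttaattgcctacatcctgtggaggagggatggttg
chr12:48177470-48177670: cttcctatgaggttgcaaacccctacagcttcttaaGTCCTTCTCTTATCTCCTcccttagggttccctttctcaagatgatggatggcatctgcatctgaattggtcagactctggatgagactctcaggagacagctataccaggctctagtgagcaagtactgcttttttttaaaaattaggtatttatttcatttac
chr17:80750177-80750377: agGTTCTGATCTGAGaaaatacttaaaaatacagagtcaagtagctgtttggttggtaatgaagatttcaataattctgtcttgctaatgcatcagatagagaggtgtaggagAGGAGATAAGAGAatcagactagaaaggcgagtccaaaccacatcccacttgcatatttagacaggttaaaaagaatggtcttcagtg
The first, 0.9 kb from the start of the nearest transcript (Gm24735), had 3 GATA6 motifs, and its best match scored 15.09, the highest of the 955. Its GATA6 signal over input was 6.61 at 8 h, 0.710 at 16 h, 1.81 at 24 h, 2.85 at 48 h and 1.42 at 96 h of Dox. The second, 130 kb from the nearest transcript start and 51.2% repeat-masked over this window, went from 7.73 at 8 h to 0.784 at 96 h. The third, 21.8 kb from the start of Map4k3, had its highest value at 24 h (10.9) and held 2.88 at 8 h and 1.73 at 96 h. The first and second thus had their highest value at 8 h, and in all 3 the value at 96 h was below that at 8 h.

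GATA6 occupancy in these regions was early and lost. The GATA6 signal over input had a median of 5.44 at 8 h (quartiles 3.89 to 7.18), 2.86 at 16 h (1.90 to 4.26), 3.07 at 24 h (2.01 to 4.52), 2.16 at 48 h (1.55 to 3.12) and 1.39 at 96 h (0.945 to 1.95). It was 1.07 in XEN cells (0.723 to 1.68). The highest of the 5 Dox values fell at 8 h in 606 regions (63.5%), at 24 h in 153, at 16 h in 133, at 48 h in 53 and at 96 h in 10. Over all regions of the series 36.1% had their highest value at 8 h. A ratio above 2 was found in 909 regions (95.2%) at 8 h and in 215 (22.5%) at 96 h, and the 96 h ratio was below 1 in 267 (28.0%). Over all regions these shares were 71.0%, 67.9% and 8.67%. In 756 regions (79.2%) the 96 h ratio was under 0.5 of the 8 h ratio, but in 54 (5.65%) it was higher than at 8 h. The shares over all regions were 38.5% and 44.8%. The Transient class thus does not hold for every region in this ratio. In the Late GATA6-only regions of the same histone state, of which there were also 955, the median went from 1.22 at 8 h to 2.72 at 96 h and 4.83 in XEN cells. Transient GATA6-only regions of the facultative heterochromatin state (1742 regions) and of the naive state (1052 regions, with lower medians in all 6 marks and in DNase) started at 5.63 and 7.43 and ended at 1.39 and 1.44. In these groups the 96 h ratio was above the 8 h ratio in 5.57% and 3.04% of regions.

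Accessibility was measured independently of the choice of these regions. ATAC signal divided by its value at d0 had a median of 1.05 at 8 h (quartiles 0.919 to 1.204), 1.14 at 16 h (0.989 to 1.30), 1.32 at 24 h (1.07 to 1.65), 1.33 at 48 h (0.921 to 2.06) and 1.05 at 96 h (0.723 to 1.44). The ratio exceeded 2 in none of the 955 regions at 8 h or 16 h, in 101 (10.6%) at 24 h, in 252 (26.4%) at 48 h and in 103 (10.8%) at 96 h. Over all regions of the series the shares above 2 were 12.1%, 47.4% and 41.2% at these 3 times. They were 12.9%, 30.8% and 11.4% in the facultative and 8.37%, 17.5% and 5.51% in the naive Transient regions, so all 3 Transient groups had their highest share at 48 h and ended at 96 h below the share of the series. At 96 h the ratio exceeded 2 in 52.9% of Late regions of the same state, whose median was 2.08, against 10.8% here. In XEN cells the medians were 1.26 here and 3.38 in those Late regions. Across the 955 regions the rank correlation of the 24 h ATAC ratio with GATA6 over input was weak. Spearman's rho was 0.25 for GATA6 at 24 h and -0.09 for GATA6 at 8 h, across regions that share the same libraries. Over all 42403 regions the values were 0.38 and 0.06. The Transient class was set from GATA6 signal, so the 2 sets of values are not like for like.

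**Figure D1:**
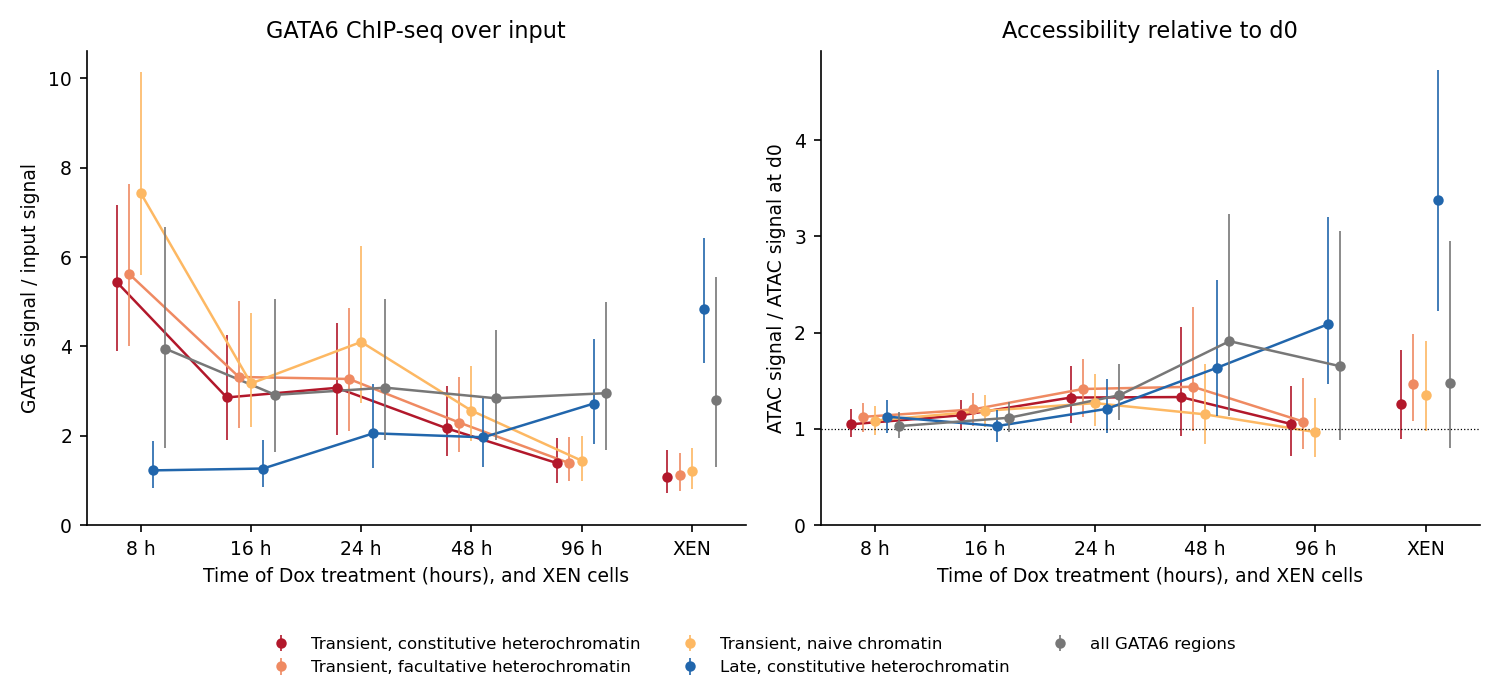
GATA6 signal over input (left) and ATAC signal relative to d0 (right) by time of Dox and in XEN cells; points are medians over regions, vertical lines run from the lower to the upper quartile, and each colour is a region group. The Transient constitutive heterochromatin regions (dark red) fall from 5.44 at 8 h to 1.39 at 96 h in GATA6 and return from 1.33 at 48 h to 1.05 at 96 h in ATAC.

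The public ES cell histone marks set the histone state, so their values are a description and not a check of it. The H3K9me3 value, scaled by the authors to library size and width, had a median of 1.07 (quartiles 0.936 to 1.33, range 0.703 to 4.23) against 0.606 over all GATA6 regions, 0.654 in the facultative and 0.510 in the naive Transient regions. The other marks were not low throughout. DNase had a median of 0.737 (0.497 to 1.22) against 0.709 over all regions and 0.460 and 0.370 in the 2 other Transient groups. H3K27ac, a mark of active elements, had a median of 0.840 against 0.894 over all regions, and H3K4me1, a mark of enhancers, 0.861 against 1.00. Their DNase, H3K27ac and H3K4me1 medians lay above those of both other Transient groups (0.667 and 0.449 for H3K27ac, 0.726 and 0.401 for H3K4me1). The region with the highest H3K9me3 value (4.23, in an intron, 2.0 kb from the start of Trim24) held no motif of the 4 kinds and went from 3.52 at 8 h to 0.532 at 96 h in GATA6 over input. The one with the lowest (0.703, between genes) went from 11.2 to 2.17.

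**Figure D2:**
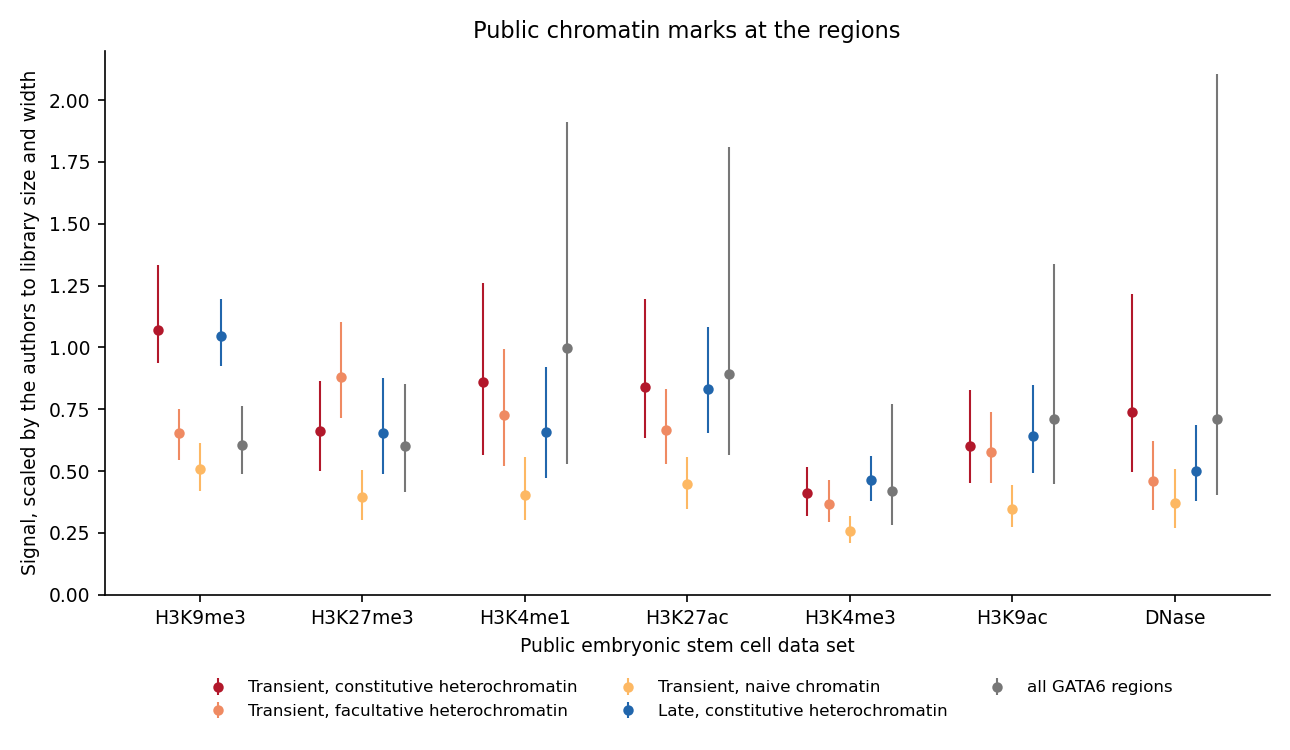
Public ES cell signals of 6 histone marks and DNase at the region groups; points are medians and lines run between quartiles, in the units of the authors' scaling to library size and width. H3K9me3 is the mark in which both constitutive heterochromatin groups (1.07 and 1.05) stand above the others (0.510 to 0.654). The states were set from these histone marks.

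By the deposited d0 class of ATAC signal, 738 regions were closed (77.3%, 95% interval 74.5 to 79.8), 216 moderate (22.6%, 20.1 to 25.4) and 1 accessible. The closed share was lower than in all 3 like groups, with a difference of -18.3 points from the facultative Transient regions (95.6%; -21.2 to -15.5), of -21.01 points from the naive ones (98.3%; -23.9 to -18.3) and of -16.5 points from Late regions of the same state (93.8%; -19.6 to -13.5). Over all other GATA6 regions 61.0% were closed. The 1 accessible region, in an exon 6.1 kb from the nearest transcript start (that of Pla2r1), had a DNase value of 7.44 and GATA6 over input of 2.86 at 8 h and 2.91 at 96 h.

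Closed and moderate regions differed in their motifs. Within 100 bp of the summit, GATA6 motifs were present in 88.2% of closed and 70.4% of moderate regions, a difference of -17.8 points for moderate minus closed (-24.6 to -11.6). An ESRRB motif lay there in 18.02% of closed and 35.6% of moderate regions, a difference of 17.6 points (10.9 to 24.7). For OCT4:SOX2 the difference was 3.75 points (-3.80 to 11.2) and for SOX17 1.07 points (-6.00 to 8.49), and both intervals include 0. The median best GATA6 score was 11.19 in closed and 9.49 in moderate regions. The median GATA6 ratio of closed and moderate regions was 5.45 and 5.39 at 8 h, and 3.24 and 2.50 at 24 h. Relative to d0, ATAC at 96 h had a median of 1.11 in closed regions and 0.774 in moderate ones; the d0 signal both sets the class and divides this ratio. The moderate regions were also more often repeat-masked at the summit, in 31.5% against 20.3%.

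GATA6 motifs were found in 871 of the 955 regions (91.2%, 89.2 to 92.8), which is 1.50 points above all other regions (interval -0.488 to 3.16). The regions were narrow, with a median width of 360 bp against 525 bp over all, so windows of one size were compared. Within 100 bp of the summit 84.2% held a GATA6 motif (81.7 to 86.4), against 34.5% of control windows of the same size 3 kb away (32.4 to 36.7). All other GATA6 regions had a share of 77.0%, a difference of 7.21 points (4.73 to 9.42). The difference from the facultative Transient regions was -7.83 points (-10.6 to -5.26), from the naive ones -8.21 points (-11.1 to -5.41) and from Late regions of the same state 0.314 points (-2.98 to 3.60). The best GATA6 motif had a median score of 10.94 (quartiles 8.78 to 13.06), against 11.58 in facultative and 12.05 in naive Transient regions and 9.63 in Late ones. It lay at a median distance of 39 bp from the summit and within 50 bp in 60.2% of the regions that had one (56.9 to 63.4). GATA6 motif density was 10.4 per kb in the 50 bp to the right of the summit and 2.66 per kb in the bin centred 125 bp away. The best motif held AGATAA in 68.3% and TGATAA in 15.7%.

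**Figure D3:**
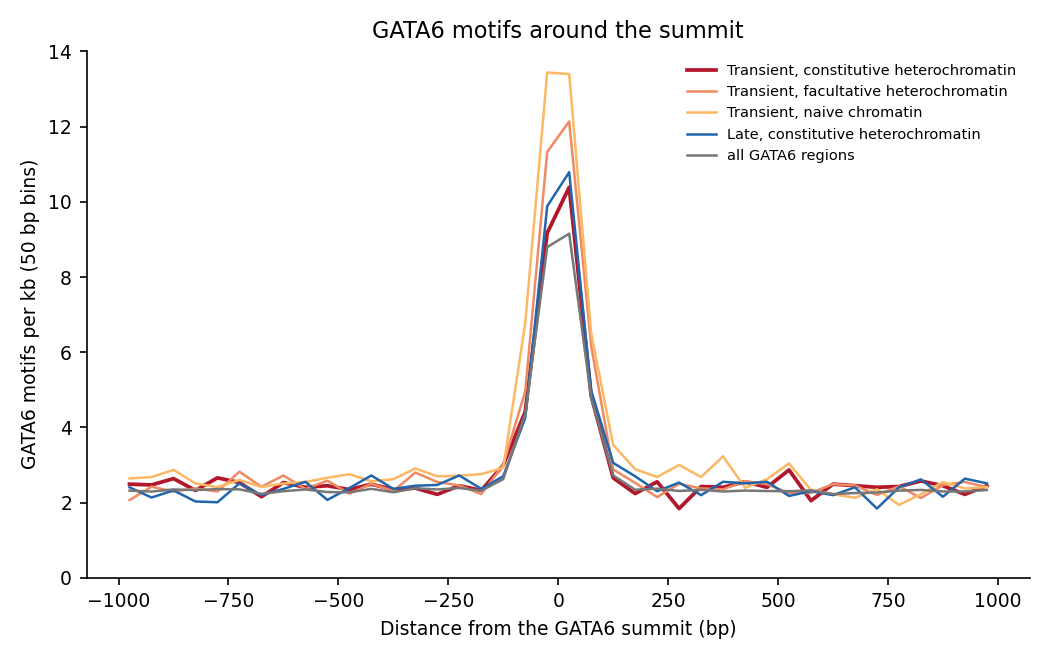
GATA6 motifs per kb in bins of 50 bp by distance from the GATA6 summit, 1 line per region group. The Transient constitutive heterochromatin line (dark red) peaks at 10.4 per kb beside the summit, below the naive Transient line (13.4) and near that of Late regions of the same state (10.8), and all lines run flat beyond about 125 bp.

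Motif score and early GATA6 signal were only weakly ordered together within this group (rho 0.08 at 8 h over 871 regions, against 0.23 over 38052 regions of the series). The Transient class was set from GATA6 signal, so these rho values are not like for like. The quartiles of the 8 h ratio were 3.89 to 7.18 here and 1.74 to 6.68 over all regions. The 231 regions with a best score of 13 or more had a median GATA6 ratio of 5.89 at 8 h, the 250 with a score under 9 had 5.19, and the 84 without any GATA6 motif had 4.62 (quartiles 3.46 to 6.75), so the quartile ranges overlapped. Of the regions without a GATA6 motif, 59.5% were closed at d0 against 79.0% of those with one, a difference of 19.5 points (9.21 to 30.5). The region with most GATA6 motifs (11, with a best score of 8.88) lay 0.9 kb from the start of Rimklb. None of these motifs lay within 100 bp of its summit, and the best was 340 bp away. The window around that summit was 97.0% repeat-masked. The stretch of the same length with most of its GATA6 motifs, which does not include the summit, is shown here with the matches in capitals. Several of the 6 matches in that stretch lie in 1 purine-rich run.
chr6:122471297-122471497: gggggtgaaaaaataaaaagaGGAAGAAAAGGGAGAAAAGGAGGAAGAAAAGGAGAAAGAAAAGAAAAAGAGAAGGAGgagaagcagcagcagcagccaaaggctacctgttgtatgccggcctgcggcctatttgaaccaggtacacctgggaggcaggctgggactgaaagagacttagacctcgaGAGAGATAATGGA

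The other motifs differed between these regions and Late regions of the same histone state. Within 100 bp of the summit, an OCT4:SOX2 motif was found in 48.9% (45.7 to 52.1), against 36.6% of the control windows (34.5 to 38.9). In the Late regions the shares were 33.6% and 36.6%, and the difference between Transient and Late at the summit was 15.3 points (10.9 to 19.6). The OCT4:SOX2 share was not higher than in the other Transient groups, with 49.4% in the facultative regions (a difference of -0.525 points, -4.46 to 3.42) and 57.5% in the naive ones (-8.61 points, -12.9 to -4.24). An ESRRB motif was found in 22.0% (19.5 to 24.7) and in 11.4% of control windows (10.05 to 12.95), against 11.7% and 11.9% in the Late regions, a difference of 10.3 points at the summit (6.93 to 13.6). A SOX17 motif was found in 35.7% here, 30.2% of control windows and 44.3% of Late regions, a difference from the latter of -8.59 points (-12.9 to -4.19). Compared with the facultative and naive Transient regions the ESRRB share was 5.92 and 5.93 points higher (2.83 to 9.11 and 2.49 to 9.37), but without regions that share a 25 bp word with another GATA6 region (restrictions chosen after the data were seen) these differences were 0.828 points (-2.55 to 4.45) and 3.77 points (-0.166 to 7.71), and among closed regions 2.29 points (-0.897 to 5.66) and 2.26 points (-1.25 to 5.86). Against the Late regions the ESRRB difference was 5.11 points (1.55 to 8.80) and 5.97 points (2.50 to 9.51) under the same 2 restrictions.

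**Figure D4:**
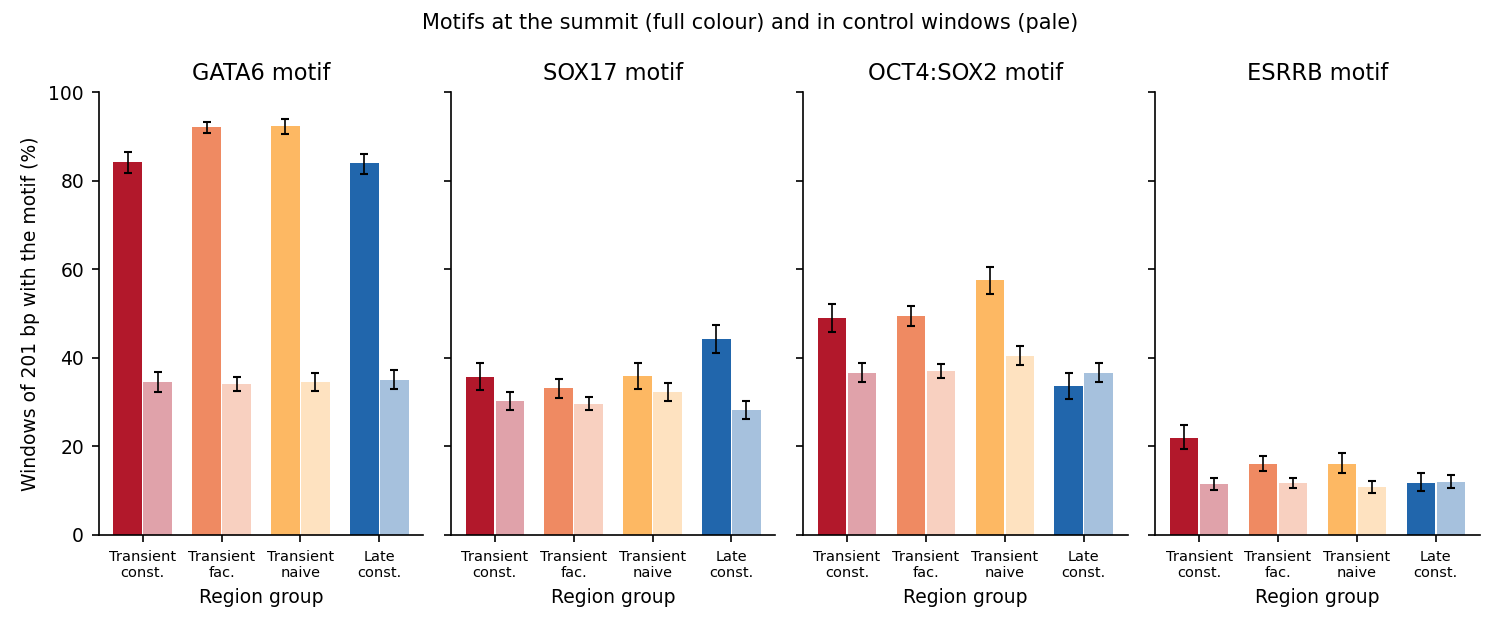
Share of windows reaching 100 bp to either side with a match to each of 4 motif matrices, at the summit (full colour) and in control windows 3 kb away (pale), by region group; bars are percent of windows and error bars are 95% Wilson intervals. ESRRB and OCT4:SOX2 bars of the Transient constitutive heterochromatin regions (22.0% and 48.9%) stand above their control bars (11.4% and 36.6%), while those of the Late regions (11.7% and 33.6%) do not.

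Short words were also searched on both strands of the same windows. TGANTCA, the AP-1 site, was found in 8.17% (6.59 to 10.1) against 6.73% of control windows, and in 13.6% of Late regions of the same state. GGAATG, the TEAD site, was found in 21.6% (19.1 to 24.3) against 10.2% of control windows (8.94 to 11.7), and in 18.7% of all other GATA6 regions. The GATA core (AGATAA or TGATAA, which overlaps the GATA6 matrix) was in 81.2% against 22.4%. GGGCGGGG (SP and KLF factors), CACGTG (E-box) and CCGGAAGT (ETS factors) were in 1.15%, 2.41% and 0.314% of the windows, and in 0.485%, 2.26% and 0.108% of the control windows.

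ESRRB signal before Dox followed the number of ESRRB motifs, although the regions carry the class without PTFs. ESRRB over input at d0 had a median of 1.16 in the 603 regions without an ESRRB motif (quartiles 0.899 to 1.43), 1.65 in the 266 with 1 motif (1.17 to 2.72), 2.61 in the 73 with 2 (1.86 to 3.85) and 3.75 in the 13 with 3 or more (2.38 to 7.23). At 96 h of Dox the 4 medians were 0.823, 0.904, 0.862 and 1.01. Median region width also rose over the 4 sets (343, 381.5, 426 and 465 bp), and its part was not tested. ESRRB over input exceeded 5 at d0 in 31 regions, 30 of which held an ESRRB motif. OCT4 and SOX2 over input exceeded 5 in 16 and 32 regions. Among all 42403 regions ESRRB, OCT4 and SOX2 exceeded 5 in 2170, 3860 and 5628, which are larger shares than here; the class without PTFs was itself set from these factors. The medians over all 955 were 1.28 for ESRRB, 1.61 for OCT4 and 1.79 for SOX2 at d0. ESRRB motifs also differed with masking, as 31.2% of regions with a repeat-masked summit and 19.3% of the others held an ESRRB motif within 100 bp (difference 11.9 points, 5.41 to 18.9).

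**Figure D5:**
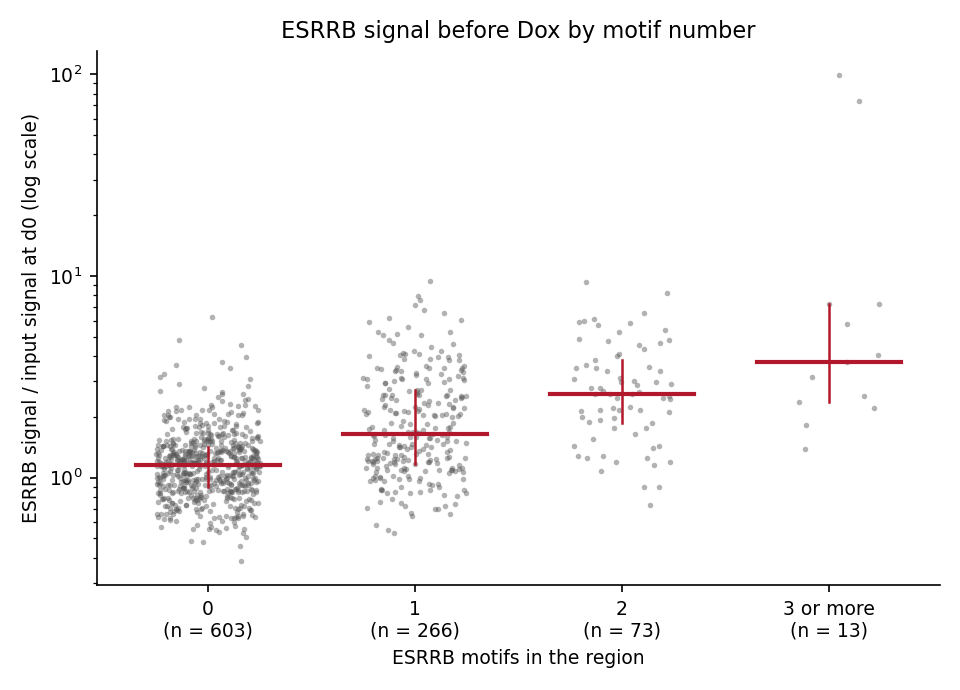
ESRRB signal over input at d0 (log scale) in each Transient GATA6-only constitutive heterochromatin region, by its number of ESRRB motifs; points are regions, red bars are medians and red lines run between quartiles. The medians are 1.16, 1.65, 2.61 and 3.75 from 0 to 3 or more motifs, and a pair of regions stands at 98.9 and 73.5.

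The 2 regions with the highest ESRRB ratio are tandem arrays of ESRRB motifs with no match to the GATA6 matrix. The first was named by the rule for most motifs near the summit, and the second was chosen after its value was seen. The sequence within 100 bp of each summit is shown with ESRRB matches in capitals, since the repeated half-site is what they share.
chr3:28113969-28114169: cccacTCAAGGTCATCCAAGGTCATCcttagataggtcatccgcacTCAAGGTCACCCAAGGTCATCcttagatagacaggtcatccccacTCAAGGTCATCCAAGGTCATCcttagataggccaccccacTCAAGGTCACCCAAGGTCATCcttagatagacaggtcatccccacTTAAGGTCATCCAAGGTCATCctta
chr1:182500938-182501138: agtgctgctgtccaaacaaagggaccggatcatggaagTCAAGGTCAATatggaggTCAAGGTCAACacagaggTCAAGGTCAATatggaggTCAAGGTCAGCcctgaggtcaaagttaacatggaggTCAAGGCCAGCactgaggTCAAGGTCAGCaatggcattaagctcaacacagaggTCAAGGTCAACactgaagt
The array on chromosome 3, in an intron 4.3 kb from the nearest transcript start (Pld1), held 15 ESRRB motifs in 511 bp, 10 of them in this window. ESRRB over input there was 98.9 at d0, 104 at 8 h and 3.23 at 96 h, and GATA6 over input was 8.52 at 8 h, 7.23 at 16 h, 2.49 at 24 h, 1.56 at 48 h and 0.944 at 96 h. The array on chromosome 1, in an intron 6.9 kb from the nearest transcript start (Gm37069), held 8 ESRRB motifs in 381 bp. Its ESRRB ratio was 73.5 at d0, 117 at 8 h and 3.61 at 96 h, and its GATA6 ratio 4.96 at 8 h and 1.97 at 96 h. Both were closed at d0 by the ATAC class, with DNase values of 3.77 and 3.57 against a median of 0.737 for the group. The ESRRB signal of the array on chromosome 1 (32.6 before division by input, against a median of 0.398 for the group) was the highest of all 42403 regions, and 4 regions of the series were above the other array (30.2). The deposited class of these regions is nevertheless the one without PTFs.

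Repeated sequence was frequent but not the rule. The summit base was repeat-masked in 22.8% of the regions (20.3 to 25.6), against 31.4% at the centres of their control windows, 15.6% of all other GATA6 summits, 13.5% of facultative Transient summits, 28.6% of naive Transient summits and 12.7% of Late summits of the same state. A 25 bp word was shared with some other GATA6 region by 35.8% (32.8 to 38.9), against 26.4% of all other regions (a difference of 9.45 points, 6.44 to 12.6), 21.4% of facultative Transient, 41.6% of naive Transient and 11.2% of Late regions. It was shared by 48.5% of the 239 regions with the highest H3K9me3 and 24.7% of the 239 with the lowest, a difference of 23.8 points (15.3 to 31.9), and the summit was masked in 29.7% and 15.1% of them. Within the group, 183 regions (19.2%) shared such a word with another member.

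The most frequent best GATA6 motifs were themselves repeated. They are printed with the GATA core in capitals.
motif A: ggcaGATAaaagg
motif B: aagaGATAaggaa
motif C: ctgaGATAagatc
motif D: cagaGATAagaga
motif E: taaaGATAacagc
Motif A was the best motif of 7 of the regions and of 111 regions of the series, with a score of 10.25, and lay in masked sequence in all 7. Motifs B to E served in 6, 6, 4 and 4 regions, with scores of 13.65, 13.76, 15.01 and 10.77. The word shared by most regions, at a median of 39.5 bp from the summit, joined 12 of them on 10 chromosomes, and was present in 163 GATA6 regions (156 Transient, 7 Early&Constant and none Late) out of 613 exact copies in the genome. All 12 were closed at d0 and held both a GATA6 and an OCT4:SOX2 motif, with GATA6 over input between 3.74 and 12.02 at 8 h and a median of 0.991 at 96 h. The best GATA6 motif was motif A in 4 of the 12. A second word joined 8 regions, all closed, among 33 GATA6 regions (24 Transient, 9 Early&Constant) and 151 genome copies, with GATA6 over input between 6.30 and 10.7 at 8 h. An ESRRB motif was held by 7 of these 8 and by none of the 12. These families were found after the data were seen, and reads in repeats pass the authors' mapping filter unevenly, whose part in these counts was not tested.

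Summits were between genes in 52.3% (49.1 to 55.4), in introns in 39.2% (36.1 to 42.3), within 1 kb of a transcript start in 4.82% (3.63 to 6.37) and in exons in 3.77% (GENCODE M21). The share between genes was 14.1 points above all other regions (10.9 to 17.3), 6.38 points above facultative Transient regions (2.44 to 10.3) and 13.6 points above Late regions of the same state (9.16 to 17.99). Its difference from naive Transient regions was 2.82 points (-1.56 to 7.18), an interval that includes 0. The median distance to a transcript start was 11.8 kb. Another GATA6 summit lay within 10 kb of 389 regions (40.7%), against 53.9% of all other regions (a difference of -13.2 points, -16.3 to -10.0). The share was 4.68 points above facultative (0.854 to 8.535) and 12.1 points above naive Transient regions (7.96 to 16.2). The difference from Late regions of the same state was -5.13 points (-9.55 to -0.687). The nearest other summit of the 389 was Transient in 191 (49.1%), Early&Constant in 120 (30.8%) and Late in 78 (20.1%), while these clusters make up 38.4%, 28.0% and 33.6% of all regions. Chromosome X held 4 of the regions, which is 0.323% of its 1238 GATA6 regions, while other chromosomes with regions ranged from 1.75% (chromosome 15) to 3.24% (chromosome 12), and chromosome Y had 0 of 1.

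The regions were dispersed. Of the 1 Mb windows with any, 563 held 1 and 143 held 2, and the densest, chr6:122000001-123000000, held 5 of its 40 GATA6 regions. The window chr16:91000001-92000000 held 4 of 29 and chr3:146000001-147000000 held 4 of 36, as did 3 further windows. Of gene bodies, Itsn1 (a scaffold protein of endocytosis) and the overlapping Atp5o (a subunit of mitochondrial ATP synthase) held the same 3 summits. Fgfr2 (a fibroblast growth factor receptor) held 3 of its 88 GATA6 summits over an annotated length of 2961 kb, Nav2 3 of 18 and St6galnac3 3 of 14. A330093E20Rik, Akr1c14, Elf2, Enox1 and Exoc4 followed, by name among ties, with 2 each.

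Gene lists were read by whether a member summit lay within 100 kb of the gene start, which held for 7.99% of protein-coding genes. Of 20 PrE genes it held for 1 (5%), while 90.0% had some Transient region that near, against 71.4% of all protein-coding genes and all 20 of the pluripotency list. That gene was Ttr, the thyroid hormone carrier made by PrE, with a closed region in an intron 5.7 kb away. GATA6 over input there was 1.89 at 8 h and 4.58 at 96 h, which is among the 54 regions that ended higher than they began. Of 20 pluripotency genes it held for Prdm14, Dppa3 and Klf5 (15.0%), with the nearest regions 62.6, 49.6 and 45.5 kb away. Their GATA6 ratios fell from 5.72 to 1.86, from 6.29 to 0.664 and from 3.75 to 0.562 between 8 h and 96 h, in closed chromatin. Of 16 germline genes, whose silencing by heterochromatin was not measured here, it held for Mael and Tdrd1 (12.5%), both of the piRNA pathway. The Mael region lay 0.8 kb from its start, with 7 GATA6 motifs and ratios of 5.72 at 8 h and 1.78 at 96 h, and the Tdrd1 region, 52.4 kb away, reached 22.3 at 8 h and 1.68 at 96 h. Of 16 imprinted genes it held for Igf2, the fetal growth factor (62.4 kb; 2.66 at 8 h and 2.40 at 96 h). Of 13 annotated genes of the H3K9me3 machinery it held for Atrx, a chromatin remodeller (8.6 kb; 4.82 and 1.90).

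Gene families, taken by symbol prefix, were read by the same measure. It held for 12.6% of 397 Zfp genes (32 different regions), 2.73% of 1135 Olfr genes (8 regions), 3.83% of 209 Vmn1r genes (4 regions), 4.17% of 120 Vmn2r genes (3 regions), 1.45% of 69 Pcdh genes and none of 11 Skint genes. The 28.6% of 42 Defb genes rested on 3 regions. The share of genes with any Transient region that near varied too, with 43.4% for Olfr, 25.4% for Vmn1r, 34.2% for Vmn2r, 74.1% for Zfp and 83.3% for Defb against 71.4% of all protein-coding genes. Genes of a family lie in clusters and share regions, so these shares count the same regions repeatedly. Of the lists, those with a share above the 7.99% of all genes were pluripotency, germline, Zfp and Defb, from 3, 2, 50 and 12 genes.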

How the data were processed

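Positions, classes and signals were taken from 1 deposited table of 42403 GATA6-bound regions. The authors aligned reads to mm10 with Bowtie2, removed duplicates and poorly mapped reads, ran MACS2 on merged GATA6 replicates and retained peaks found in every replicate. Clusters came from k-means of input-normalised GATA6 signal, PTF and SOX17 classes from called peaks. The deposited signal scores are reads in the region corrected by the authors for library size only (public marks also for width), so ratios to input or to d0 were used. Deposited motif scores are FIMO log-odds scores. The 2 columns that name single libraries of other series, motif-group columns, and the columns of the authors' Oct4 knockdown comparison (signals and a response class) were not used. These columns give no depth per library.

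Base counting was checked on GRCm38. Among full-length best motifs each repeated sequence had 1 score, and 4 matrices recovered by least squares returned the same presence or absence as deposited for 99.7% to 99.97% of regions. These scanned windows of 100 bp either side of summits, and equal control windows 3 kb upstream and downstream, dropped where a GATA6 region lay in them. Repeat masking is that of the RefSeq sequence. Shared words of 25 bp had at least 12 different trimers.

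No test was run, since regions are not replicates and no replicate values were used. The matrix recovery and intervals were tested on simulated data. The compared groups are GATA6-only too (no PTF, no SOX17). Named regions are those with the 3 best GATA6 scores, most GATA6 motifs, most motifs near the summit, highest and lowest H3K9me3, nearest each listed gene, the 3 densest 1 Mb windows, 10 genes with most summits and 5 most frequent motifs; other regions named were chosen after their values were seen. Members, lists and groups were chosen with earlier results of these data known. Alternatives were width, chromosome X, closed regions, window size, distances and shared words. Scripts ran in Python 3.11.15 with matplotlib 3.10.9, scipy 1.17.1, pandas 2.3.3 and numpy 2.4.6.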

Additional observations from a re-analysis of the deposited data

How the results depend on the processing

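Of 70 values recomputed for 22 results, 40 stayed within the interval of the value reported and 30 moved beyond it. Sign was checked only for differences between groups, and 0 of these changed sign. Leaving out chromosome X moved none of 8. The share closed at d0, 77.3%, was 99.9% with the moderate class counted as closed. The share with a GATA6 motif, 91.2%, was 95.8% in the interquartile range of widths (369 to 778 bp, 431 regions), 93.2% in closed regions and 84.2% within 100 bp of the summit. Its difference from facultative Transient regions, -5.12 points, was -7.83 within 100 bp of the summit and -1.88 in the interquartile range of widths, where the interval reached 0.0468. That from naive Transient regions, -4.90 points, was -8.21 and -1.12 there, with an interval from -3.67 to 1.07. That from Late regions of the state, 1.89 points, was 4.28 in the same widths, where the interval (0.396 to 9.19) no longer included 0. Differences in the closed share stayed within their intervals in all alternatives tried. Without members that share a 25 bp word with another member, an alternative chosen after seeing the data, 1 of 16 values moved, the share with an ESRRB motif in the region, from 36.9% to 32.6%. In differences between groups this filter was applied to the members only, and the compared groups were left whole. The causes were not tested. No paired analysis was possible because the columns used carry no replicate numbers and no result comes from a test. The authors' pooled signals carry no replicate error and no depth per library.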

Other observations

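The Early&Constant GATA6-only regions of the constitutive heterochromatin state, 226 in number, entered no comparison above. An ESRRB motif density of 0.949 per kb was measured there, against 1.25 in the Transient and 0.666 in the Late regions of the state, and 31.9% (26.1 to 38.2) shared a 25 bp word with another GATA6 region. Of all regions without PTFs in the series, 38 had ESRRB over input above 10 at d0, including the pair of tandem arrays.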
